A study of Homo sapiens with 16 samples.

Results

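Interferon-stimulated genes are the genes that cells switch on after interferon or after sensing foreign nucleic acid. Here 45 of them, out of 26485 genes listed, were followed in ribosome footprints, in total RNA and in the ratio of the 2. They were taken by gene symbol from a list that spans interferon-signalling transcription factors, nucleic acid sensors, antiviral effectors, the ISG15 pathway and antigen processing, and the rule itself uses no measured value. The cells were MDA MB 231, a human breast cancer line of mesenchymal appearance, given in the labels as a xenograft cell line, grown in DMEM with 10% FBS and without treatment. All cells carried a CRISPR interference (CRISPRi) guide, which represses transcription at its target, and an expression construct, controls included. The 4 conditions were the eGFP guide with the control construct (control cells below), the eGFP guide with the tRNAIleUAU construct (UAU cells), the Ile GAU guide with the control construct (GAU cells) and the Ile GAU guide with the tRNAIleUAU construct (GAU+UAU cells). Each condition had 2 libraries of ribosome-protected fragments (footprints) and 2 of total RNA, 16 in all. The study set out to ask how ribosome occupancy responds when 1 isoleucine tRNA is lowered and another is raised. The labels number the replicates without saying whether they were separate cultures, so the p-values below measure only the spread between these libraries, which may be technical. No treatment is given in the labels of any group, interferon included. The guide, the tRNA it lowers and the cells that received it coincide, so their parts cannot be told apart.

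Type I interferons bind the IFNAR receptor, whose kinases JAK1 and TYK2 phosphorylate STAT2. STAT2 and IRF9 belong to the complex ISGF3, which binds the interferon-stimulated response element (ISRE) in promoters. Interferon gamma acts at a different element, the gamma-activated site (GAS). Many induced proteins recognise or degrade viral RNA, hold viruses at membranes, or prepare peptides for display on MHC class I. In cells without added interferon many of these genes keep a lower basal level, and some breast cancer lines are known for a raised one.

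The promoters of the list were read first, because the ISRE is what many of its members have in common by textbook definition. RefSeq promoter windows of GRCh38.p14, from 250 bases before to 50 bases after each start, matched 37 of the 45 members and gave 49 windows, since several genes have more than 1 start. IRF7, OAS2, OASL, IFIT2, GBP2, MX2, IFITM2 and TRIM22 had no entry. The ISRE was searched as GAAA, any 2 bases and GAAA, on both strands, so that it reads TTTC, any 2 bases and TTTC on the other strand, and overlapping matches were counted. It was found in 29 of 49 windows (59.2%) against 3.57% of 35116 windows of all genes. By gene, 25 of 37 members (67.6%) had at least 1 match against 4.38% of 27305 genes. The GAS was searched as TTC, any 3 bases and GAA, which reads the same on both strands. It was found in 14 of 49 windows (28.6%) against 7.66% of all windows. A match is a description of the letters and not a measured binding site.

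The windows that follow carry matches of chosen members, in lower case with the matched letters in capitals, 5′ to 3′ along the gene's own strand. They show how often the element is repeated close to the start, and the last one shows the GAS of the transcription factor gene IRF1.
IFIT1 (chr10:89392495-89392541, plus strand): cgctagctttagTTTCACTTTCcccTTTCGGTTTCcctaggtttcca
IFIT3 (chr10:89327829-89327896, plus strand): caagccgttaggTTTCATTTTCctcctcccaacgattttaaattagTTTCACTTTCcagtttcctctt
IFIT3 (chr10:89332423-89332499, plus strand): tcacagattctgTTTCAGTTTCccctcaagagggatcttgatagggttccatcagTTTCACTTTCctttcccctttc
IFIT5 (chr10:89414511-89414567, plus strand): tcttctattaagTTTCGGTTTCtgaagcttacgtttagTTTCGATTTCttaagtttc
DDX60 (chr4:168318784-168318852, minus strand): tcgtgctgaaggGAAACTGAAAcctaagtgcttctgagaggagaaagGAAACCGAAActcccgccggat
SAMD9 (chr7:93118094-93118127, minus strand): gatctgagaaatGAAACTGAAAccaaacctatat
PARP9 (chr3:122564320-122564353, minus strand): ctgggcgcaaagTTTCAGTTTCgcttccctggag
ISG15 (chr1:1013372-1013411, plus strand): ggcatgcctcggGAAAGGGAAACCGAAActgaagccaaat
BST2 (chr19:17405733-17405772, minus strand): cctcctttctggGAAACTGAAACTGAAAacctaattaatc
IFITM3 (chr11:320874-320924, minus strand): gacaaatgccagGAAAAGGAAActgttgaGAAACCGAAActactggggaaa
TAP1 (chr6:32853811-32853850, minus strand): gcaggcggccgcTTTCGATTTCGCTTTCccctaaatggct
IRF1 (chr5:132490877-132490909, minus strand): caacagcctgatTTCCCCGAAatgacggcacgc

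IFIT3 is shown at both of its listed starts, and the IFIT5 window holds 2 of its 3 matches. In ISG15, BST2 and TAP1 neighbouring matches share letters and run together. PARP9 and DTX3L are transcribed away from each other, and the match at chr3:122564332-122564341 lies in the promoter windows of both. Over all members, the 48 matches fell on 44 separate genomic sites, 15 members had 2 or more sites, and every match lay within 200 bases of a start. Counted from the start, the farthest began at -196, the median match at -93.5 and the nearest upstream match at -4, and 2 matches began after the start. The 12 matched members without an ISRE match were STAT2, IRF1, IRF9, DDX58, IFI16, OAS1, ADAR, UBE2L6, TRIM25, PSMB9, IFI35 and SAMD9L. No match says only that these letters are not in this window.

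**Figure D1:**
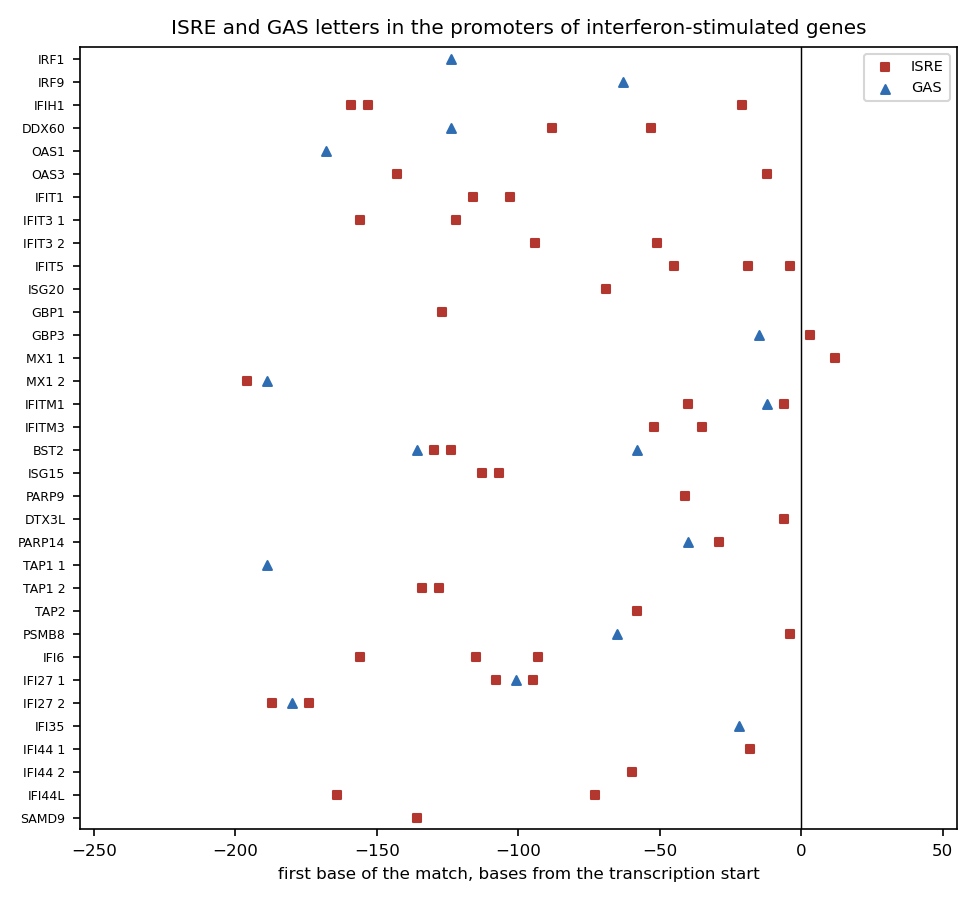
Positions of ISRE matches (squares) and GAS matches (triangles) in promoter windows of members, in bases from the transcription start (line at 0), with 1 row for each window that holds a match. The ISRE matches lie within 200 bases of the starts, and several IFIT genes, ISG15, BST2 and TAP1 hold more than 1.

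Footprint libraries held 358340 to 938909 counts on genes, with 358340 to 607919 under the eGFP guide and 639320 to 938909 under the Ile GAU guide. Total RNA libraries held 2512247 to 5446599. Members took 0.188% to 0.238% of the footprint counts and 0.163% to 0.185% of the total RNA counts, and 42 to 45 of them had at least 1 count in each footprint library. Levels below are CPM, the counts of a gene relative to the library's total, scaled by the trimmed mean of M-values. They are not divided by gene length, so levels of different genes are not ranked. All members together summed to between 1928 and 2426 CPM of footprints and to between 1616 and 1887 CPM of total RNA. The 7 markers of the cell line summed to 19352 to 21288 CPM in footprints, while markers of other cells were mixed. The 8 leukocyte genes summed to 150 to 220.1 CPM in footprints and 13.2 to 38.7 in total RNA, most of it CD68 (128 to 175 CPM in footprints) and HLA-DRA (11.9 to 40.0), with CD3E at 0 in all 16 libraries. The 6 fibroblast genes summed to 13.5 to 28.6 and 4.35 to 14.7 CPM, with DCN at 0, and the 5 endothelial genes to 2.86 to 12.2 and 7.75 to 14.7 CPM, with CDH5 at 0. The 2 total RNA libraries of GAU+UAU cells differed from each other more than any other pair, with a chi-square per degree of freedom of 15.0 against 1.37 to 2.41 for the other total RNA pairs and 1.15 to 1.67 for footprint pairs. Results that use that condition are given with each of them left out where that changes a call. In bulk libraries, fewer cells expressing a gene and less of its RNA in each cell cannot be told apart.

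After removal of genes with low counts, 39 members were tested in footprints among 8143 genes, 39 in total RNA among 11720 genes, and 36 in the ratio among 8012 genes. OAS1, MX2 and IFI27 were too low in either assay. MX1, IFI44L and TRIM22 were too low in footprints only, and ISG20, IFITM1 and IFI6 in total RNA only. Tests were edgeR's quasi-likelihood tests on counts with Benjamini-Hochberg adjustment over all genes tested, and a call means an adjusted p under 0.05. Changes are log2 fold changes ± SE. Every comparison with control cells uses the same 2 control libraries per assay, so these comparisons are not independent of each other, nor of the comparison of the guides.

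Most calls came from the comparison of the guides. With both constructs combined, 4 libraries of the Ile GAU guide were compared with 4 of the eGFP guide in each assay. In total RNA 3 members fell, the antiviral helicase gene DDX60, the RNA-binding effector gene IFIT1 and the growth-restraining gene SAMD9L, and none rose. That is 3 of 39 tested members lower, against 0.896% of all genes lower and 1.08% called in either direction. In footprints 1 member rose, the membrane gene IFITM2, against 0.688% of all genes called higher. IFITM2 passed the low-count filter only with libraries of the Ile GAU guide, where it is high. DDX60 fell in footprints as well, where 1.99% of all genes were called lower and 2.68% in either direction. At an unadjusted p under 0.05 there were 9 members in total RNA, 8 of them lower, where 10.5% of all genes passed. In footprints there were 9, 7 of them lower, where 13.4% passed. These shares hold both directions, and the share lower was not counted at this threshold. DESeq2 gave 6 calls in total RNA, adding IFIT2, SAMD9 and TRIM25, where it called 164 of the 6494 genes to which it gave an adjusted p (2.53%). In footprints it gave 0, where it called 69 of 4512 (1.53%). It left 20 members in each assay without an adjusted p, IFITM2 in footprints among them. The median change of the members was -0.06 in total RNA and -0.11 in footprints, beside 0.02 and 0.01 over all genes tested.

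Other measures moved with the guide too. Footprint libraries of the Ile GAU guide were all deeper than those of the eGFP guide. With every library thinned to the shallowest, 0 members were called in footprints by guide (1.84% of all genes), with DDX60 at -0.61 (adjusted p = 0.304). IFITM2 had no test result in footprints after thinning. In total RNA 4 were called (0.959% of all genes): DDX60, IFIT1, IFIT2 and SAMD9L. Luminal breast markers also differed in footprints. The 8 genes summed to 520 to 580.2 CPM under the eGFP guide and 594 to 648 under the Ile GAU guide, of which KRT19 gave most, with ESR1 and TFF1 at 0, and only 2 of the 8 passed the filter. In total RNA their sums overlapped, at 66.1 to 72.4 and 57.6 to 134 CPM. The part of these markers in the members' values was not tested.

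Expressed as separation of the libraries, 8 members had all 4 total RNA libraries of the Ile GAU guide below all 4 of the eGFP guide: DDX60, OAS2, IFIT1, IFIT2, IFIT3, IFI44, SAMD9 and SAMD9L. Over all genes 5.08% were separated in that direction. TRIM25 alone of the members lay wholly above, where 3.40% of all genes did. In footprints DDX60, OASL, SAMD9 and SAMD9L lay wholly below (4.30% of all genes) and IFITM1 and IFITM2 wholly above (2.94%). SAMD9L, IFITM1 and IFITM2 passed the low-count filter only with footprint libraries of the guide in which they are higher. Their separation is therefore not independent of the filter. No member was separated by construct in either assay, where 1.50% of genes lay higher and 1.87% lower in footprints, and 1.08% higher and 0.751% lower in total RNA.

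**Figure D2:**
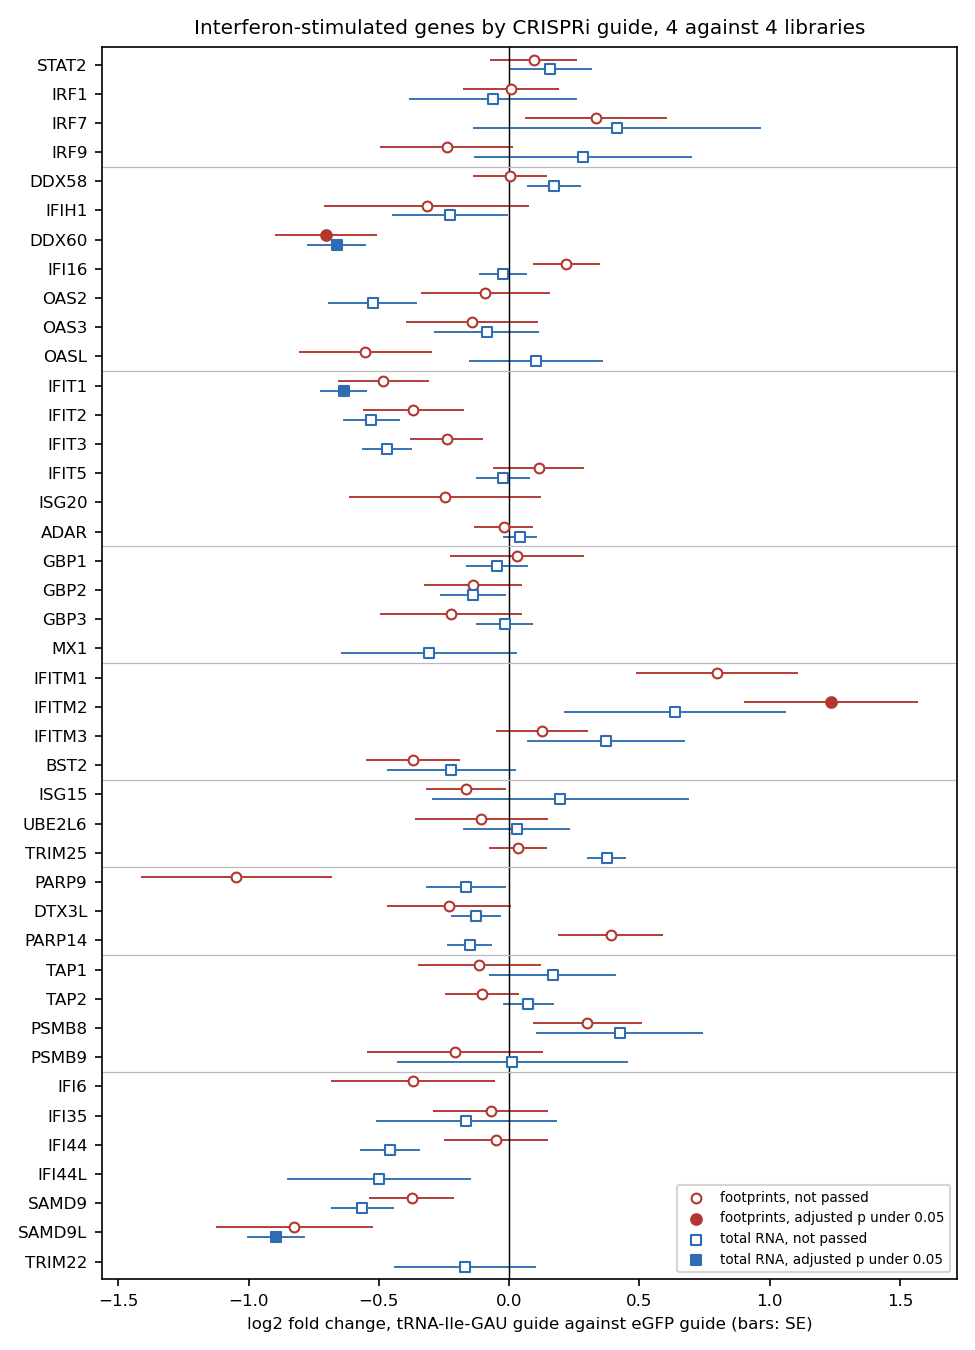
Log2 fold change of each tested member between the Ile GAU guide and the eGFP guide, 4 against 4 libraries, in footprints (circles) and total RNA (squares), with SE as bars and filled symbols for an adjusted p under 0.05. Members are grouped by role. IFIT1, DDX60 and SAMD9L are filled to the left of 0 in total RNA. In footprints DDX60 is filled to the left of 0 and IFITM2 to the right.

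SAMD9L, whose product restrains cell growth and translation, had the largest drop in total RNA. Its libraries held 52.3 and 54.1 CPM in control cells, 69.7 and 62.1 in UAU cells, 25.0 and 31.0 in GAU cells and 33.1 and 38.5 in GAU+UAU cells. Every library of the Ile GAU guide was below every library of the eGFP guide. The mean was 59.5 ± 7.99 CPM under the eGFP guide and 31.9 ± 5.58 under the Ile GAU guide (SD, n = 4), a change of log2 -0.90 ± 0.11, adjusted p = 0.0122. Footprints of SAMD9L were 28.6 and 18.7 CPM in control cells, 28.6 and 27.9 in UAU cells, 16.9 and 15.9 in GAU cells and 11.8 and 14.4 in GAU+UAU cells. They too were separated, and the change of -0.82 ± 0.30 did not pass (adjusted p = 0.141). SAMD9, its neighbour and paralogue, held 133 and 125 CPM in control cells, 154 and 146 in UAU cells, 88.7 and 97.6 in GAU cells and 76.1 and 114 in GAU+UAU cells in total RNA. These were separated by guide, with a change just outside the threshold (log2 -0.56 ± 0.12, adjusted p = 0.0675).

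Both genes lie on chromosome 7, SAMD9 at chr7:93099518-93117979 and SAMD9L at chr7:93130056-93148385 (GRCh38.p14). Chromosome 7 as a whole was lower under the Ile GAU guide. In total RNA 516 of its 553 tested genes had a negative change, with a median of -0.37, against 0.03 for all other genes. In footprints it was 342 of 371 with a median of -0.39, against 0.02. SAMD9L was lower than that median in total RNA, with 15 chromosome 7 genes below it, while 83 lay below SAMD9. No other member lies on chromosome 7, and the part of that shift in the SAMD9 and SAMD9L values was not tested.

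IFIT1, on chromosome 10 at chr10:89392623-89406487, binds viral RNA that lacks the host's cap methylation and blocks its translation. In total RNA it held 67.3 and 69.8 CPM in control cells, 68.5 and 78.4 in UAU cells, 45.6 and 46.7 in GAU cells and 43.5 and 47.3 in GAU+UAU cells. The 4 libraries of the Ile GAU guide lay within 43.5 to 47.3 CPM and all 4 of the eGFP guide at 67.3 CPM or more. The drop was -0.63 ± 0.09, or 1.55-fold lower, with an adjusted p of 0.0165. Its footprints held 55.6 and 62.7 CPM in control cells, 65.7 and 90.8 in UAU cells, 59.0 and 50.2 in GAU cells and 48.2 and 40.0 in GAU+UAU cells, overlapping between the guides, and the change of -0.48 ± 0.18 did not pass (adjusted p = 0.134).

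DDX60, on chromosome 4 at chr4:168216294-168325979, encodes a helicase that assists RIG-I-like sensing of viral RNA. Total RNA held 44.3 and 48.7 CPM in control cells, 71.2 and 59.6 in UAU cells, 40.1 and 32.1 in GAU cells and 33.0 and 34.6 in GAU+UAU cells. Footprints held 48.8 and 59.4 CPM in control cells, 68.6 and 62.9 in UAU cells, 32.5 and 31.8 in GAU cells and 36.4 and 47.9 in GAU+UAU cells. Libraries of the Ile GAU guide were lower without overlap in both assays. The changes were -0.66 ± 0.11 in total RNA (adjusted p = 0.0352) and -0.70 ± 0.19 in footprints (adjusted p = 0.0209). It was the only member called in both assays.

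These calls depended on which libraries were in the fit. Leaving out any 1 of the 6 total RNA libraries of control, UAU or GAU cells left 0 members called in the total RNA guide comparison, where 0.0488% to 0.0734% of all genes were called, with adjusted p of 0.0655 to 0.131 for SAMD9L, 0.110 to 0.146 for IFIT1 and 0.115 to 0.222 for DDX60. Leaving out 1 total RNA library of GAU+UAU cells did the opposite, for all genes as well as for the members. Without the first there were 8 calls (4.67% of all genes) and without the second 9 (15.5% of all genes), namely DDX60, IFI44, IFIT1, IFIT2, IFIT3, SAMD9, SAMD9L and TRIM25 in both cases, with IFITM3 (0.58, adjusted p = 0.0403) added in the latter. In the former IFITM3 was at -0.039 (adjusted p = 0.959). For footprints of DDX60, removal of 1 library gave an adjusted p above the threshold for control cells 2 (0.167), UAU cells 1 (0.0799) and 2 (0.0960), GAU cells 1 (0.0517) and 2 (0.0602) and GAU+UAU cells 1 (0.131).

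IFITM2 at chr11:307816-309395 belongs to the small IFITM family, whose proteins sit in endosomal and plasma membranes and hinder viral entry. Its footprints were few: 8 and 7 counts in control cells, 7 and 2 in UAU cells, 27 and 17 in GAU cells and 23 and 18 in GAU+UAU cells. In CPM these were 13.5 and 11.9 CPM in control cells, 20.0 and 3.49 in UAU cells, 32.5 and 20.8 in GAU cells and 24.6 and 28.8 in GAU+UAU cells. All 4 libraries of the Ile GAU guide were above the other 4, and the rise was 1.24 ± 0.33, or 2.36-fold (adjusted p = 0.0166). IFITM2 passed the low-count filter only with libraries of the Ile GAU guide, so neither the separation nor the call is independent of the filter. In the fit without that filter the change was 1.25 (adjusted p = 0.00891). Without UAU cells 2, the library with 2 counts, the change was 0.73 (adjusted p = 0.441), and without UAU cells 1 it was 1.96 (adjusted p = 0.00346). The call was also lost without control cells 1 (adjusted p = 0.0624), control cells 2 (0.0979) or GAU cells 1 (0.152). In total RNA IFITM2 held 2.38 and 5.01 CPM in control cells, 2.77 and 3.35 in UAU cells, 6.26 and 3.52 in GAU cells and 8.73 and 2.84 in GAU+UAU cells, and its change of 0.64 ± 0.43 did not pass (adjusted p = 0.673). IFITM1, IFITM2 and IFITM3 are closely related neighbours. Reads that fit more than 1 of them may have been discarded or split, so the values of these genes are uncertain.

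**Figure D3:**
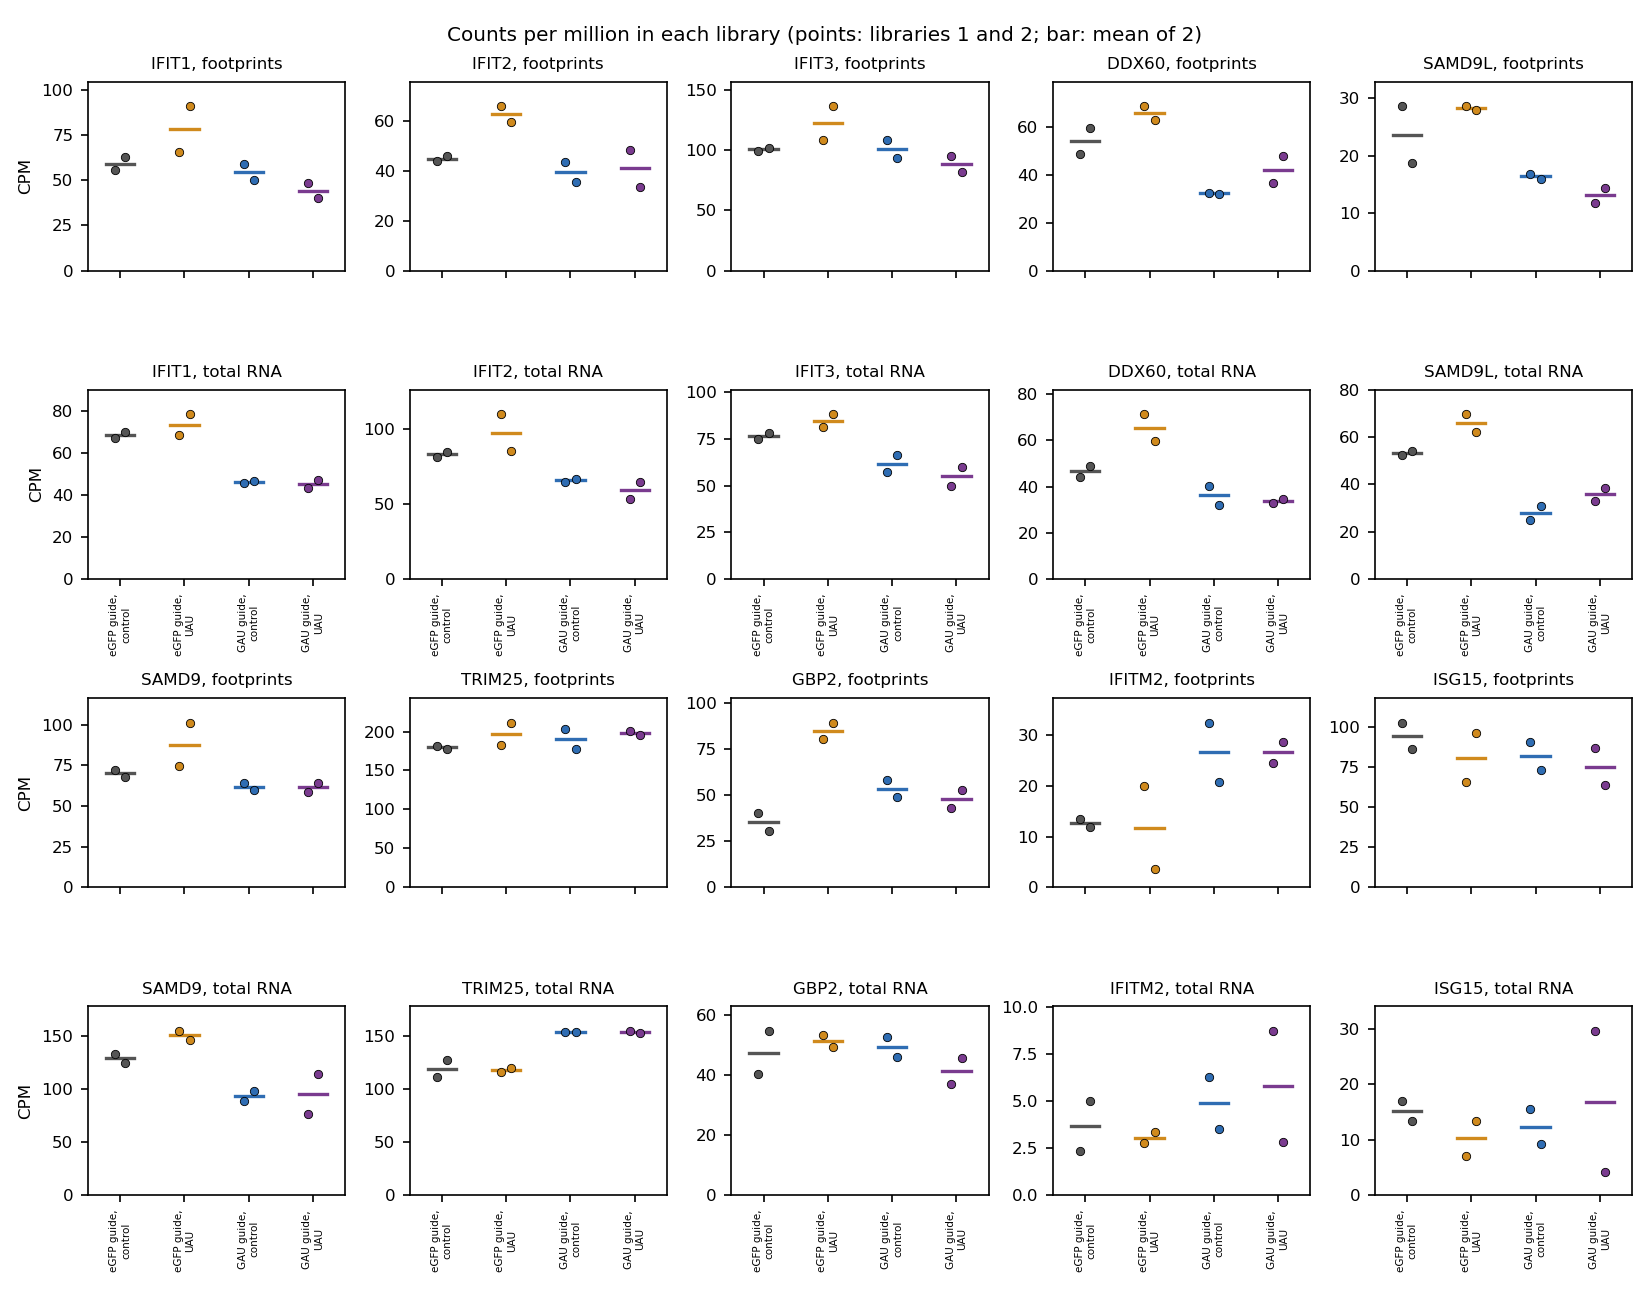
CPM of 10 members in each library, footprints above total RNA for each gene, with the 2 libraries of a condition as points and their mean as a bar, on axes that start at 0. Total RNA of IFIT1, IFIT2, IFIT3, DDX60, SAMD9L and SAMD9 is lower in all 4 libraries of the Ile GAU guide, TRIM25 is higher, and GBP2 footprints are highest in UAU cells.

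The tRNAIleUAU construct on its own gave 1 call. In footprints of UAU cells against control cells GBP2 rose, 1 of 39 tested members, where 2 genes of 8143 (0.0246%) were called, both higher (0.0246%). GBP2 encodes a guanylate-binding protein, one of the large GTPases that coat pathogens and their vacuoles, and lies at chr1:89106132-89126114. Its footprints held 40.4 and 30.5 CPM in control cells, 80.0 and 89.1 in UAU cells, 57.8 and 48.9 in GAU cells and 42.8 and 52.7 in GAU+UAU cells. Both libraries of UAU cells were above the other 6. The rise was 1.26 ± 0.28, or 2.40-fold, with an adjusted p of 0.0423. Total RNA of GBP2 held 40.4 and 54.8 CPM in control cells, 53.4 and 49.5 in UAU cells, 52.6 and 46.0 in GAU cells and 37.1 and 45.8 in GAU+UAU cells, with a change of 0.10 ± 0.18 (adjusted p = 0.999) and both libraries of UAU cells within the range of control cells. In GAU+UAU cells, which carry the same construct, footprints of GBP2 did not pass against control cells (log2 0.40 ± 0.29, adjusted p = 0.63). The difference between the construct's effect under the 2 guides was -1.45 ± 0.37 and did not pass either (adjusted p = 0.103). The call was lost when any 1 of the 4 libraries was left out: control cells 1 (1.48, adjusted p = 0.498), control cells 2 (1.08, 0.809), UAU cells 1 (1.33, 0.0993) or UAU cells 2 (1.2, 0.970). DESeq2 did not make it (adjusted p = 0.9998).

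Other comparisons with control cells gave no call among the members. At an unadjusted p under 0.05, footprints of UAU cells gave 4 members, all higher, with GBP2 among them (5.02% of all genes in either direction). The median change of the members was 0.27 with 28 of 39 positive. Total RNA of UAU cells gave 0 calls (0.00% of all genes), 2 unadjusted (1.99%) and a median of 0.13 with 30 of 39 positive. DESeq2 called 0 members in both. Over all genes 49.6% were positive in footprints of UAU cells and 50.5% in total RNA. In GAU cells 17 of 39 members were positive in each assay (50.2% of all genes in footprints and 51.1% in total RNA). In GAU+UAU cells it was 21 of 39 in each (50.9% and 55.4%). The medians over all genes tested in these comparisons with control cells lay between -0.002 and 0.03. For GAU cells, footprints gave 0 calls (1.11% of all genes), 6 unadjusted (9.75%), 0 by DESeq2, which left all 39 members without an adjusted p, and a median of -0.11. Total RNA of GAU cells gave 0 calls (0.0256%), 5 unadjusted (6.94%), 0 by DESeq2 with 23 members without an adjusted p, and a median of -0.03. For GAU+UAU cells, footprints gave 0 calls (1.93%), 4 unadjusted (11.9%), 0 by DESeq2 with 36 members without an adjusted p, and a median of 0.02. Total RNA of GAU+UAU cells gave 0 calls (0.0683%), 8 unadjusted (7.62%), 0 by DESeq2 with 32 members without an adjusted p, and a median of 0.01. Where DESeq2 left most members without an adjusted p, its count of 0 carries little information. With 1 total RNA library of GAU+UAU cells left out, the last count became 1 without the first (2.51% of all genes), which was ISG15, and 9 without the second (15.8% of all genes): IFI44, IFIT1, IFIT2, IFIT3, IRF7, ISG15, SAMD9, SAMD9L and TRIM25.

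The comparison of GAU cells with control cells does not contain the GAU+UAU libraries, but its fit estimates the spread over all 8. With both total RNA libraries of GAU+UAU cells left out, a choice made after the data were seen, 3 members fell in GAU cells, where 2.03% of all genes were called. They were IFIT1 (-0.57 ± 0.13, adjusted p = 0.0180), SAMD9 (-0.45 ± 0.10, adjusted p = 0.0147) and SAMD9L (-0.90 ± 0.15, adjusted p = 0.00132). Leaving out only the first gave 4 (2.07% of all genes), with TRIM25 added (0.36 ± 0.10, adjusted p = 0.0485), and leaving out only the second gave the same 3 (1.96%). In the fit of all 8 libraries IFIT1 had -0.57 ± 0.13 (adjusted p = 0.207) and SAMD9L -0.91 ± 0.16 (adjusted p = 0.153).

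Across both guides the construct comparison gave 0 members in footprints (0.430% of all genes called), 3 unadjusted (7.56%) and 0 by DESeq2, which left 37 members without an adjusted p. In total RNA it gave 0 (0.00%), 3 unadjusted (1.96%) and 0 by DESeq2. The difference of the construct's effect between the guides gave 0 members in footprints (0.0614%) and 0 by DESeq2. Unadjusted there were 5 (5.83% of all genes in either direction), all of them negative. In total RNA it gave 0 (0.00%), 1 unadjusted (2.66%), which was DDX60 (-0.57 ± 0.23, adjusted p = 0.998), and 0 by DESeq2. Without the second total RNA library of GAU+UAU cells, IRF7 (2.08, adjusted p = 0.0339) and ISG15 (1.81, adjusted p = 0.00938) passed, where 4.42% of all genes did, and without the first they were at -0.78 and -1.03 and did not pass. The 5 in footprints were GBP2, the DNA sensor gene IFI16, OAS2, PARP14 and IFIT1.

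**Figure D4:**
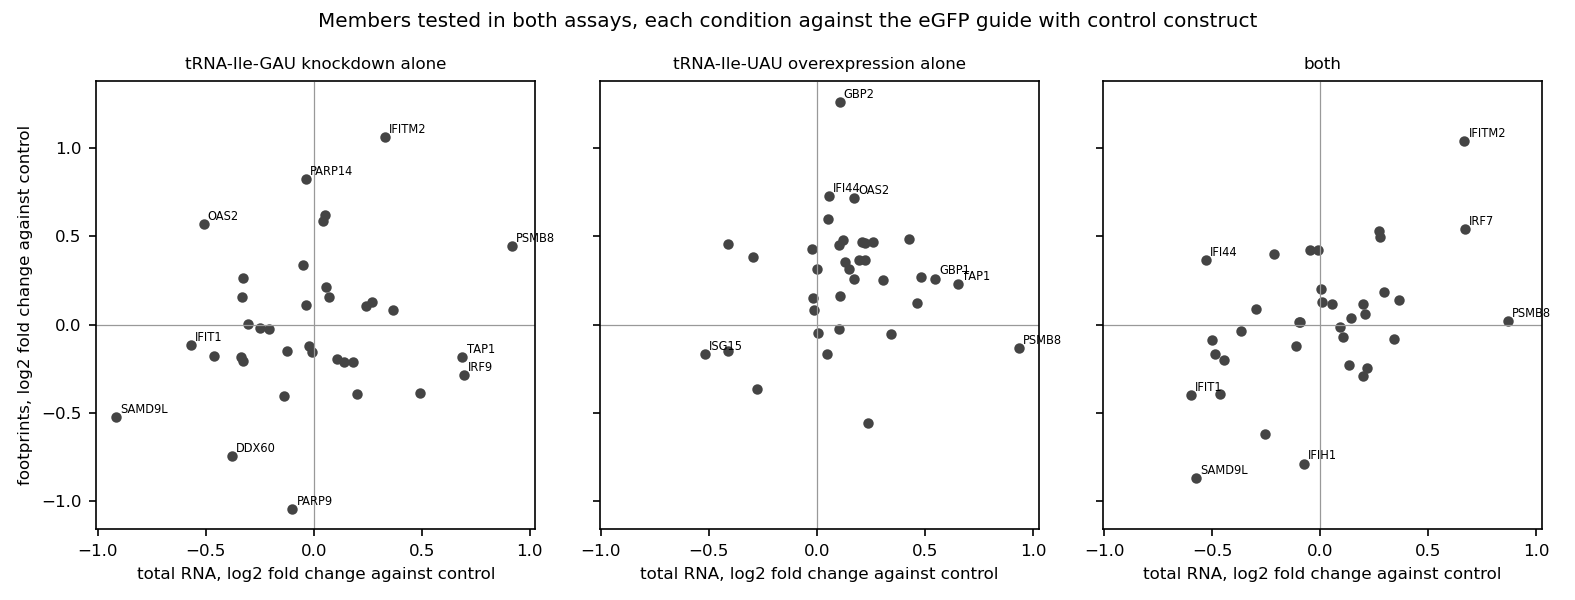
Log2 fold change against control cells in total RNA (x axis) and in footprints (y axis) of the 36 members tested in both assays, for GAU cells, UAU cells and GAU+UAU cells from left to right, with the farthest members named. Only GBP2 in UAU cells passed in footprints, at 1.26 on the y axis, and none passed in total RNA.

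Among the transcription factors, STAT2 and IRF9 belong to ISGF3, IRF7 drives interferon genes after virus sensing, and IRF1 is a target of the interferon gamma pathway. None of the 4 passed in any comparison of all libraries. STAT2 ran over 31.7 to 50.8 CPM with a median of 44.3 in total RNA and 42.9 to 80.7 CPM in footprints. For IRF1 it was 4.91 to 14.3 CPM with a median of 8.66 in total RNA and 48.2 to 60.6 CPM in footprints. IRF9 gave few RNA counts, 3 to 19 per library and 1.00 to 3.68 CPM, yet 22.4 to 33.9 CPM of footprints, and IRF7 held 2.07 to 15.1 and 17.1 to 34.3 CPM. The guide changes of the 4 in footprints lay between -0.24 and 0.33.

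The sensors divide into the RNA helicases DDX58 (RIG-I, listed as RIGI in RefSeq), IFIH1 (MDA5) and DDX60, the DNA sensor IFI16, and the OAS family, which makes the messenger that activates RNase L or, for OASL, assists RIG-I. DDX58 was even across conditions, with 89.1 to 118 CPM in total RNA and 84.8 to 107 CPM in footprints. IFIH1 held 9.27 to 16.8 and 3.20 to 20.2 CPM. Footprints of IFI16 held 111 and 95.0 CPM in control cells, 163 and 152 in UAU cells, 163 and 154 in GAU cells and 125 and 155 in GAU+UAU cells. Control cells were the lowest of the 4 conditions without overlap. The difference of GAU cells from control cells was 0.62 ± 0.18 and missed the threshold (adjusted p = 0.059), but without either footprint library of GAU+UAU cells, which leaves the compared libraries in place and changes the fit, it passed (0.0351 and 0.0358). UAU cells differed from control cells by 0.60 ± 0.20 (adjusted p = 0.587) and GAU+UAU cells by 0.42 ± 0.18 (adjusted p = 0.311), while total RNA of IFI16 held 126 to 164 CPM and overlapped.

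In the OAS family, OAS2 total RNA held 16.2 and 15.7 CPM in control cells, 20.6 and 15.7 in UAU cells, 12.5 and 10.1 in GAU cells and 12.8 and 11.9 in GAU+UAU cells. The guides did not overlap, and the change of -0.52 ± 0.17 did not pass (adjusted p = 0.262). OASL showed the separation in footprints instead, with 28.6 and 27.1 CPM in control cells, 42.9 and 36.7 in UAU cells, 19.3 and 23.2 in GAU cells and 23.6 and 24.0 in GAU+UAU cells and a change of -0.55 ± 0.25 (adjusted p = 0.316). OAS3 held 13.7 to 22.2 CPM in total RNA and 18.7 to 38.4 CPM in footprints, overlapping between guides and between constructs. OAS1 was near the limit of detection, with 15 counts in the 8 total RNA libraries and 16 in the 8 footprint libraries.

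Of the RNA effectors, the IFIT proteins bind non-self RNA ends, ISG20 is an exonuclease and ADAR edits adenosine in double-stranded RNA. IFIT2 total RNA held 81.5 and 84.5 CPM in control cells, 109.6 and 85.1 in UAU cells, 64.8 and 66.6 in GAU cells and 53.1 and 64.9 in GAU+UAU cells. IFIT3 total RNA held 74.8 and 78.5 CPM in control cells, 81.5 and 88.2 in UAU cells, 57.4 and 66.2 in GAU cells and 49.9 and 60.0 in GAU+UAU cells. Like IFIT1, both were lower in every library of the Ile GAU guide, and both were just outside the threshold, at -0.53 ± 0.11 (adjusted p = 0.0555) and -0.47 ± 0.10 (adjusted p = 0.0571). These 3 genes and IFIT5 form a cluster on chromosome 10. IFIT5 was not separated by guide. It held 46.1 to 58.2 CPM in total RNA with a guide change of -0.02 ± 0.11 (adjusted p = 0.96). In footprints the guide changes were -0.37 ± 0.20 for IFIT2, -0.24 ± 0.14 for IFIT3 and 0.11 ± 0.18 for IFIT5, none past the threshold. ADAR, with 235 to 268 CPM in total RNA and 166 to 216 CPM in footprints, changed by 0.04 ± 0.06 between guides in total RNA (adjusted p = 0.85). ISG20 held 8.57 to 18.7 CPM in footprints and 0.396 to 3.10 CPM in total RNA.

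The GTPases are the guanylate-binding proteins and the Mx proteins, which trap viral nucleocapsids. GBP1 total RNA held 28.9 and 27.7 CPM in control cells, 40.8 and 41.8 in UAU cells, 33.9 and 30.5 in GAU cells and 30.6 and 38.0 in GAU+UAU cells. UAU cells were the highest, and their difference from control cells of 0.54 ± 0.17 did not pass (adjusted p = 0.999). GBP3 held 49.8 to 64.4 CPM in total RNA and 14.5 to 42.9 CPM in footprints. Reads shared among GBP1, GBP2 and GBP3 make the split between these paralogues uncertain. MX1 was low, with 75 counts over 8 total RNA libraries and 27 over 8 footprint libraries, and MX2 had 7 and 8.

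Beside IFITM2, the membrane group holds IFITM1, IFITM3 and BST2, the tetherin that holds budding virions at the cell surface. IFITM1 footprints were 11.8 and 11.9 CPM in control cells, 20.0 and 15.7 in UAU cells, 36.1 and 23.2 in GAU cells and 21.4 and 20.8 in GAU+UAU cells. They were separated by guide, at 7 to 30 counts per library, and the change of 0.80 ± 0.31 did not pass (adjusted p = 0.182). Like IFITM2, IFITM1 passed the low-count filter only with libraries of the Ile GAU guide. Its total RNA amounted to 20 counts in 8 libraries. IFITM3 held 45.8 to 70.3 CPM in footprints and 11.5 to 28.5 CPM in total RNA, with guide changes of 0.13 ± 0.18 and 0.37 ± 0.30. BST2 footprints held 55.6 and 50.9 CPM in control cells, 71.5 and 75.1 in UAU cells, 44.6 and 51.4 in GAU cells and 45.0 and 54.3 in GAU+UAU cells. The guides overlapped, and the change was -0.37 ± 0.18 (adjusted p = 0.348).

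ISG15 is a ubiquitin-like protein that is joined to newly made proteins, UBE2L6 is the conjugating enzyme of that reaction, and TRIM25 is a ligase that also activates RIG-I. TRIM25 total RNA held 111 and 128 CPM in control cells, 117 and 119.6 in UAU cells, 154 and 154 in GAU cells and 155 and 153 in GAU+UAU cells. The 4 libraries of the Ile GAU guide lay within 153.3 to 155.0 CPM, above all 4 of the eGFP guide, and the change of 0.37 ± 0.08 was just outside the threshold (adjusted p = 0.0537). In footprints TRIM25 held 177 to 211 CPM, with a change of 0.03 ± 0.11. UBE2L6 held 8.27 to 13.3 CPM in total RNA and 22.9 to 31.0 CPM in footprints, with no separation. ISG15 footprints held 103 and 86.5 CPM in control cells, 65.7 and 96.1 in UAU cells, 90.3 and 73.4 in GAU cells and 86.7 and 63.9 in GAU+UAU cells. Its total RNA held 17 and 13.4 CPM in control cells, 7.12 and 13.4 in UAU cells, 15.5 and 9.15 in GAU cells and 29.6 and 4.14 in GAU+UAU cells. The 2 libraries of GAU+UAU cells were the highest and the lowest of the 8. With the first of them left out, ISG15 total RNA in GAU+UAU cells was lower than in control cells by -1.87 (adjusted p = 0.0167), and with the second left out it was higher by 0.97 (adjusted p = 0.0174), so no direction is read from it.

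That disagreement went in opposite directions in members with many footprints for their total RNA and in the others. Of the 14 members with more than 1 log2 unit more footprints than total RNA, all 14 were higher in the first total RNA library of GAU+UAU cells than in the second, by a median of 1.10. Of the other 22 tested members 5 were higher, with a median of -0.22. The split of members uses these same libraries, and the share of all genes that moved this way was not counted. The 14 summed to 173.7 CPM in the first library and 73.4 in the second, and to 101.6 to 131.4 in the other 6 total RNA libraries. The 82 ribosomal protein genes moved the same way, with 21433 CPM in the first library, 14110 in the second and 12541 to 16667 in the other 6. The part of that library difference in any member's value was not tested beyond leaving each library out.

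PARP9 and DTX3L form a complex that modifies histones and viral proteins, and PARP14 is an ADP-ribosyltransferase. PARP9 had few footprints, 3 to 15 per library, at 23.6 and 11.9 CPM in control cells, 28.6 and 21 in UAU cells, 10.8 and 6.12 in GAU cells and 16.1 and 4.79 in GAU+UAU cells. The guides overlapped, and the change of -1.05 ± 0.37 did not pass (adjusted p = 0.111), but without GAU+UAU cells 1 it was -1.66 and passed (0.0365). PARP9 passed the low-count filter in footprints only with libraries of the eGFP guide, where it is higher. In total RNA PARP9 held 14.8 to 20.2 CPM, with a change of -0.17 ± 0.15. DTX3L held 58.1 to 76.6 CPM in total RNA and 23.7 to 40.2 CPM in footprints. PARP14 footprints held 26.9 and 40.7 CPM in control cells, 62.9 and 36.7 in UAU cells, 60.2 and 60.0 in GAU cells and 50.3 and 38.4 in GAU+UAU cells. GAU cells lay above control cells, while UAU and GAU+UAU cells overlapped with them. The difference of GAU from control cells was 0.83 ± 0.28 (adjusted p = 0.149), while total RNA of PARP14 held 80.7 to 110.0 CPM.

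TAP1 and TAP2 pump peptides into the endoplasmic reticulum, and PSMB8 and PSMB9 are subunits of the immunoproteasome. None of the 4 passed in any comparison of all libraries. TAP2 footprints held 84.2 and 93.3 CPM in control cells, 134 and 117 in UAU cells, 100.0 and 97.9 in GAU cells and 108 and 79.9 in GAU+UAU cells. Both UAU libraries were above the other 6, and the difference from control cells was 0.48 ± 0.21 (adjusted p = 0.884). TAP1 held 25.7 to 38.4 CPM in footprints and 4.39 to 8.47 CPM in total RNA. PSMB8 total RNA held 2.38 and 3.34 CPM in control cells, 4.75 and 6.19 in UAU cells, 4.42 and 6.33 in GAU cells and 6.95 and 3.36 in GAU+UAU cells, from 6 to 39 counts per library. Its differences from control cells of 0.92 ± 0.49, 0.93 ± 0.49 and 0.87 ± 0.47 in GAU, UAU and GAU+UAU cells share the same 2 low control libraries, and none passed. PSMB9 held 1.19 to 3.92 CPM in total RNA and 9.59 to 21 CPM in footprints.

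The remaining members are induced genes of varied or little-known function. IFI44 total RNA held 36.4 and 44.4 CPM in control cells, 41.9 and 42.3 in UAU cells, 31.3 and 33.1 in GAU cells and 26.4 and 30.0 in GAU+UAU cells. Every library of the Ile GAU guide was lower, and the change of -0.46 ± 0.11 did not pass (adjusted p = 0.119). Its footprints overlapped between guides (30.5 to 69.9 CPM). IFI44L had 92 counts in 8 total RNA libraries and 3 in 8 footprint libraries. IFI35 held 25.7 to 55.9 CPM in footprints and 3.10 to 9.35 CPM in total RNA. The small membrane proteins IFI6 and IFI27 were seen mainly as footprints, with 14 to 26.9 and 3.37 to 20.3 CPM against 0 to 1.96 and 0 to 2.85 CPM in total RNA. TRIM22, an antiviral ligase, held 3.10 to 7.04 CPM in total RNA, where its construct change was -0.67 ± 0.27 (adjusted p = 0.9999).

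The ratio of footprint CPM to total RNA CPM is a measure of ribosome load per transcript within each gene. Footprints come from the coding sequence and total RNA from the whole transcript, so the ratio also carries gene structure and library chemistry and is not an absolute efficiency. Averaged over the 4 conditions, the 36 members had a median log2 ratio of 0.54, beside 0.13 over 8012 genes, and 14 of 36 (38.9%) lay above 1 beside 31.3% of all genes. IRF9 was the highest at 3.29 ± 0.23, followed by PSMB8 at 3.19 ± 0.22, PSMB9 at 2.65 ± 0.30 and ISG15 at 2.62 ± 0.28. The lowest were SAMD9L at -1.16 ± 0.13, DTX3L at -1.11 ± 0.10 and GBP3 at -1.10 ± 0.14. By role the medians were 2.43 for antigen processing, 2.33 for transcription factors, 1.82 for membrane effectors and 1.51 for the ISG15 pathway. They were 0.09 for sensors, 0.03 for RNA effectors, -0.16 for the other induced genes, -0.26 for the GTPases and -0.997 for the PARP group. IRF1 at 2.56 ± 0.19 and OASL at 2.37 ± 0.17 were high within their groups.

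No member's ratio passed between conditions in the fit of all 16 libraries. For GAU cells against control cells there were 0 calls among 36 members (0.00% of all genes) and 3 at an unadjusted p under 0.05 (3.34% of all genes). The counts were 0 (0.00%) and 2 (2.78%) for UAU cells, and 0 (0.00%) and 2 (4.18%) for GAU+UAU cells. The guide comparison gave 0 (0.00%) and 3 (4.66%), and the construct comparison 0 (0.00%) and 1 (3.06%). DESeq2 called 0 members in each of these 5. Without the second total RNA library of GAU+UAU cells, the ratio of ISG15 was lower in GAU+UAU cells than in control cells, by -1.26 (adjusted p = 0.0163), where 7.72% of all genes passed. Without the first it was higher by 1.56 and did not pass (adjusted p = 0.278). Largest among them was GBP2 in UAU cells, at 1.16 ± 0.32 (unadjusted p = 0.00259 and adjusted p = 0.9999 by edgeR). For the members that fell in total RNA with the guide, ratio changes were 0.15 ± 0.18 for IFIT1, -0.04 ± 0.21 for DDX60 and 0.07 ± 0.27 for SAMD9L. For TRIM25 it was -0.34 ± 0.12 (adjusted p = 0.867).

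**Figure D5:**
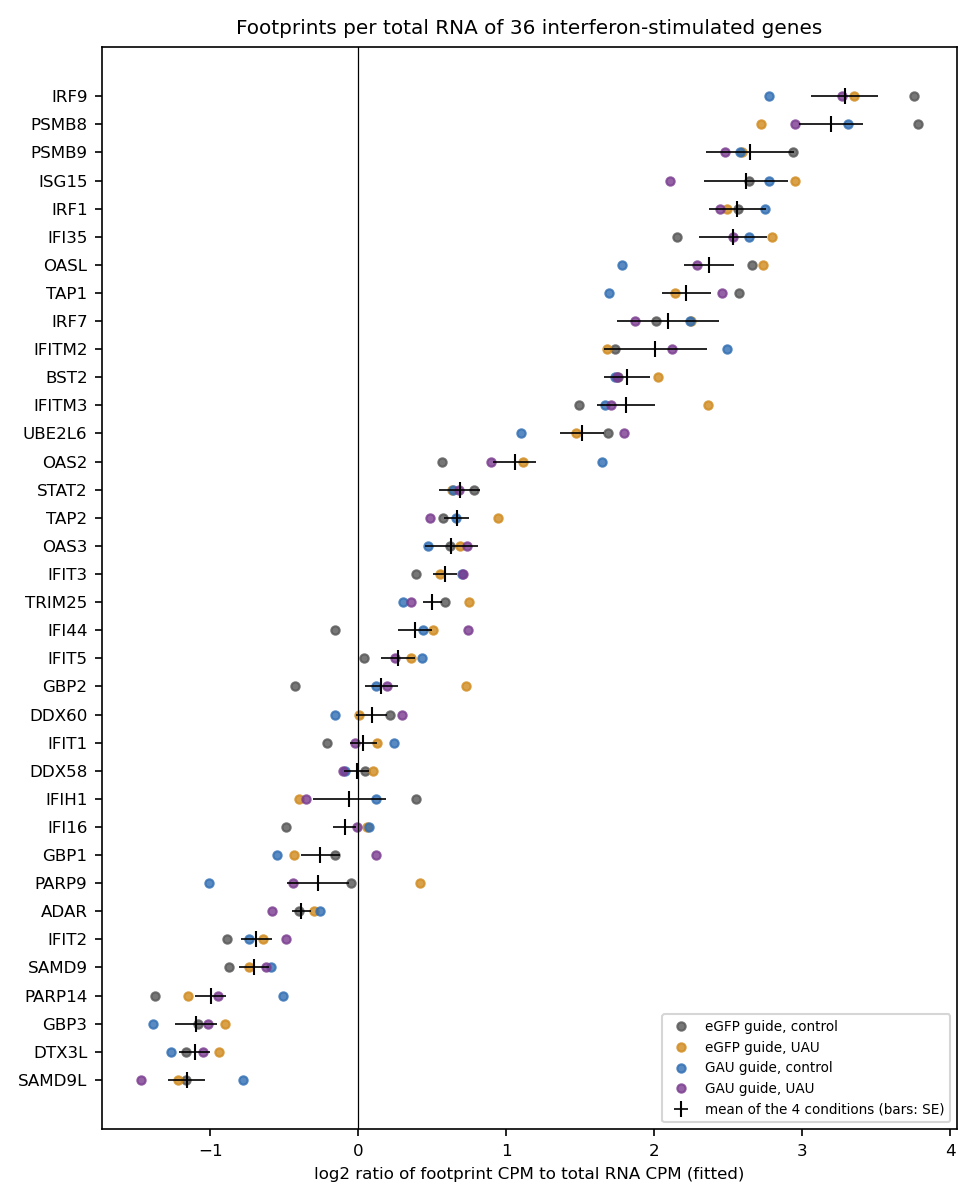
Fitted log2 ratio of footprint CPM to total RNA CPM of the 36 members tested in both assays, ordered by their mean over conditions, with 1 coloured point for each condition and the mean with its SE in black. The means run from -1.16 for SAMD9L to 3.29 for IRF9, and no member's ratio passed between conditions.

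The rest of the interferon pathway was read from lists of genes outside the 45. The 10 interferon ligand genes had 0 footprints in all libraries, and 9 of 10 had 0 total RNA counts. Of 10 receptor and kinase genes, 7 were tested in footprints and 9 in total RNA, and none passed in any comparison. JAK1, a kinase shared by several interferon receptors, had a guide change of 0.01 ± 0.12 in footprints (adjusted p = 0.985). Of 17 genes of nucleic acid sensing, 8 and 12 were tested. Of 10 negative regulators 6 and 7 were tested, of 15 genes of MHC class I and its assembly 12 and 14, and of 15 NF-kB targets 7 and 10, and none passed. Of 33 further interferon-induced genes, 23 were tested in footprints and 26 in total RNA, and 1 passed: ZC3HAV1, the CpG-directed antiviral protein ZAP, which is also encoded on chromosome 7. It fell in footprints under the Ile GAU guide by 0.49 on the log2 scale (SE 0.13, adjusted p = 0.0208). There 1.99% of all genes were called lower. Its total RNA change of -0.45 ± 0.11 did not pass (adjusted p = 0.123). Over all genes tested, 0.00% to 2.68% were called in the comparisons of all libraries. With so few called, an absence of calls in lists this short carries little information.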

How the data were processed

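Each of the 16 libraries came with 1 file of read counts per gene. The deposited counts were made by the authors with cutadapt 1.17, STAR 2.5.2a and HTSeq on hg38, per the submitters' processing notes. The order of steps, settings, annotation and strand handling are not given in the sources used here, so divergent neighbours such as PARP9 and DTX3L may share reads. Rows that name no gene were left out of library sizes and tests. Entries recorded as not uniquely aligned were 97.0% to 98.8% of all entries in footprints and 97.2% to 98.1% in total RNA. These may count alignments, more than 1 for a read, and so are not given as shares of reads. A gene with no row in a footprint file was given 0.

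Samples were grouped by guide, construct and molecule as labelled. Counts of all 8 libraries of an assay were fitted together with edgeR 4.0.16 (R 4.3.3, limma 3.58.1) after filterByExpr (minimum count 10, minimum total 15) and trimmed mean of M-values scaling, with group means and quasi-likelihood tests. The ratio was tested as the difference of the footprint and total RNA contrasts in 1 fit of 16 libraries. SE is the absolute log2 fold change over the square root of F. The fit was tested on simulated data. DESeq2 1.42.0, other scaling, no filter, thinning, a replicate block and each library left out were the alternatives. Members with an adjusted p under 0.05, the 3 lowest p in the guide, construct and GAU+UAU comparisons, the highest total RNA level and ratio of each role, and members that are extreme, untestable or in counts of 5 or fewer were named. The members and the gene lists were chosen with earlier results of these data known. Replicate numbers did not mark a deviation of the same sign in all conditions and were not treated as pairs. Isoleucine codon content was not analysed here.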

Additional observations from a re-analysis of the deposited data

How the results depend on the processing

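Reversals of direction came in total RNA with GAU+UAU cells. ISG15 in GAU+UAU cells, 0.20 with all libraries, ran from -1.87 to 0.97 when 1 library was left out and was -0.0060 with the replicate block, and IRF7 ran from -1.43 to 1.42. IFITM3 by guide ran from -0.039 to 0.58, the difference of construct effects from -0.78 to 2.14 for IRF7 and from -1.03 to 1.81 for ISG15, and the ISG15 ratio in GAU+UAU cells from -1.26 to 1.56. No member called in the fits of all libraries reversed. Median changes of the members moved from their value with all libraries by less than the SD between replicates of the members' median level. That SD was 0.17 log2 units for footprints, 0.32 for total RNA and 0.36 for the ratio. Medians near 0 changed sign. GAU cells had -0.12 to 0.06 for footprints and -0.09 to 0.02 for total RNA. GAU+UAU cells had -0.04 to 0.06 and -0.20 to 0.11. Ratio medians were -0.13 to 0.20 in GAU+UAU cells and -0.10 to 0.05 by guide. Counts of members called moved. Leaving out 1 library at a time gave 0 to 1 members for footprints of GAU cells (0 with all), 0 to 1 for footprints of UAU cells (1 with all), 0 to 2 for footprints by guide (2 with all), 0 to 4 for total RNA of GAU cells (0 with all), 0 to 9 for total RNA of GAU+UAU cells (0 with all), 0 to 9 for total RNA by guide (3 with all), 0 to 2 for the total RNA difference of construct effects (0 with all) and 0 to 1 for the ratio in GAU+UAU cells (0 with all). DESeq2 gave 0 for footprints of UAU cells, 0 for footprints by guide and 6 for total RNA by guide. Without the filter on low counts these were 0, 2 and 7, and total RNA of GAU cells gave 1. With libraries thinned to the shallowest they were 0, 0 and 4, with no test result for IFITM2 in footprints. Leaving out both total RNA libraries of GAU+UAU cells, chosen after seeing the data, gave 3 for total RNA of GAU cells. The cause of these shifts was not tested.

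Same-numbered libraries of different conditions had deviations that correlated at -0.04 to 0.06 in footprints and at -0.42 to 0.36 in total RNA. The signs were mixed, so the numbers were not used as pairs. Given so few libraries, these correlations cannot exclude a pairing. A fit with the replicate block gave 1 member for footprints of GAU cells, IFI16, and 2 for total RNA by guide, without DDX60 (adjusted p = 0.0576). The block left the other counts of members as they were. With 2 libraries a condition, single-condition comparisons rest on a shared estimate of spread, and members with few footprint counts, such as IFITM2 and PARP9, follow single libraries.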

Other observations

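The members were split by whether their promoter windows held an ISRE match, a split that no test was run on. In total RNA by guide, the 21 tested members with a match had a median change of -0.15, with 16 negative, and the 11 without had a median of 0.03, with 4 negative. In footprints by guide the 22 with a match had a median of -0.19, with 16 negative, and the 11 without had -0.02, with 6 negative. Over all genes tested by guide, 53.9% of changes were positive in total RNA and 51.5% in footprints. In UAU cells against control cells the medians were 0.20 with a match and 0.05 without in total RNA, and 0.34 and 0.12 in footprints. In GAU cells they were -0.10 and 0.14 in total RNA, and -0.15 and 0.08 in footprints. In GAU+UAU cells they were 0.0036 and 0.10 in total RNA, and 0.02 and 0.02 in footprints. Tested members without a promoter window are not in the split. These comparisons share libraries, and SAMD9L, with the largest drop in total RNA, is among the members without a match.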
